A study of Rattus norvegicus with 30 samples.

Results

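The response of primary rat hepatocytes to 5000 µM acetaminophen was compared between an early harvest, 24 h after dosing, and a late harvest at 48 h. The comparison used 20 of the 30 arrays of the study, chosen by the dose and time in the sample titles: 5 of vehicle (1% DMSO) and 5 of 5000 µM acetaminophen at each time. The remaining arrays, 5 at each time from 500 µM wells, entered the model for its estimate of spread only. All wells held purchased, cryopreserved hepatocytes from male Sprague Dawley rats, plated on collagen, covered with Matrigel and dosed on day 3 of culture. The labels call the 5 wells of a group independent cultures and name no animals, so the spread behind each p-value is that between wells, not that between rats. For each gene the effect of the drug is the mean log2 signal at 5000 µM minus the mean log2 signal of vehicle at the same time. The quantity of interest is the effect at 48 h minus the effect at 24 h, here called the difference. It shows which effects shrank, which persisted and which appeared late. Errors on log2 values are standard errors with n = 5 arrays per group, adjusted p-values come from limma after Benjamini-Hochberg adjustment over all 8530 genes tested, and a gene is called at an adjusted p under 0.05.

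Acetaminophen is cleared in hepatocytes mainly by conjugation to glucuronic acid and sulfate, while cytochrome P450 enzymes, chiefly CYP2E1, oxidise a part of it to a quinone imine that consumes glutathione and binds proteins. Hepatocytes also make bile acids, break down amino acids and oxidise fatty acids. Many genes of fatty acid oxidation are induced through PPAR-alpha, a nuclear receptor that binds DNA together with RXR. Plated hepatocytes lose part of their liver programme with time, so vehicle wells are not a fixed baseline.

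The signal of an array is a MAS5 intensity in arbitrary units. Hepatocyte markers were bright in every group: the summed signal of 17 of them ran from 628558 to 859254 over the 20 arrays, and Alb, the gene of serum albumin, had effects of 0.12 ± 0.12 at 24 h and 0.03 ± 0.12 at 48 h. Summed signals of 20 stellate cell and fibroblast markers ran from 47139 to 53511 in vehicle and from 36899 to 44711 at 5000 µM at 24 h, then from 30832 to 43211 and from 24962 to 29124 at 48 h, carried mostly by Lox and Dpt, while the collagen genes Col1a1 and Col1a2 and the stellate genes Des, Lrat and Pdgfrb had group means below 469, the level of the dimmest gene tested. In bulk RNA fewer cells of a type and less RNA per cell cannot be told apart. The 3'/5' β-actin log2 ratio, taken from the control probe sets at both ends of that transcript, which rises as RNA is degraded or copied incompletely, had a 24 h mean of 1.78 ± 0.24 in vehicle and 1.37 ± 0.22 at 5000 µM (SD over 5 arrays each), a difference of -0.41 (exact permutation test, two-sided, p = 0.0476, adjusted over 8 tests 0.0889). At 48 h it was 1.24 ± 0.11 and 1.21 ± 0.05, a difference of -0.03 (exact permutation p = 0.579, adjusted 0.579). From 24 to 48 h it changed by -0.53 in vehicle (exact permutation p = 0.00794, adjusted 0.0317). The change at 5000 µM was -0.16 (exact permutation p = 0.0556, adjusted 0.0889). The same ratio for GAPDH changed by -0.12 in vehicle (exact permutation p = 0.00794, adjusted 0.0317) and by -0.03 at 5000 µM (p = 0.389, adjusted 0.444). Sorted over all 30 arrays, the β-actin ratio leaves its largest gap between 1.544 and 1.735. Above it lay 3 vehicle arrays, 3 of 500 µM and 1 of 5000 µM at 24 h, and at 48 h all 5 of 500 µM and none of the other groups. Calls that depend on it are given with the ratio as a covariate.

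Acetaminophen changed many genes at both times. At 24 h 3252 of 8530 genes were called (38.1%), 1583 higher (18.6%) and 1669 lower (19.6%), of which 36 rose (0.422%) and 92 fell (1.08%) at least 2-fold. At 48 h 2779 were called (32.6%), 1243 higher (14.6%) and 1536 lower (18%), with 25 rises (0.293%) and 92 falls (1.08%) of at least 2-fold. The effect itself differed between the times for 1399 genes (16.4%), with 660 differences upward (7.74%) and 739 downward (8.66%). With the β-actin ratio as a covariate 821 differences were called, 747 of them among the 1399 and in the same direction, so the size of this count depends on the ratio. The balance of directions depends on the scaling: with arrays centred on their medians, 1752 genes were higher and 1496 lower at 24 h, and 1439 higher and 1284 lower at 48 h, while 688 differences were upward and 651 downward. All 5 treated arrays lay beyond all 5 vehicle arrays for 24.1% of genes at 24 h and 25.4% at 48 h.

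The genes fell into 5 time classes, set by the 3 calls together. Effects that were smaller by 48 h made up 711 genes (8.34%), 341 early rises (4%) and 370 early falls (4.34%). Of these 588 (6.89%) were no longer called at 48 h and 123 (1.44%) still were. Persisting effects, called in one direction at both times with no called difference, made up 1253 genes (14.7%), 594 higher (6.96%) and 659 lower (7.73%). For 115 of these (1.35%) the 95% interval of the difference lay within 50% of the 24 h effect either way, and they are called held. For the other 1138 (13.3%) the interval reached beyond that range, so the arrays do not settle how far the effect changed. Grown effects, called at both times and larger at 48 h, numbered 91 (1.07%), 28 higher (0.328%) and 63 lower (0.739%), and late effects, called at 48 h but not at 24 h with a called difference, numbered 423 (4.96%), 178 higher (2.09%) and 245 lower (2.87%). Effects that turned, being called in opposite directions at the 2 times, numbered 128 (1.5%), 67 first higher (0.785%) and 61 first lower (0.715%). A further 1830 genes (21.5%) were called at 1 time with no called difference, 887 higher (10.4%) and 943 lower (11.1%), and are not placed in a class. For 46 (0.539%) the difference alone was called. With arrays centred on their medians the persisting class held 698 rises and 569 falls and the late class 201 and 194, so neither class has a settled majority direction. The classes are built from the same arrays as the calls and are descriptions without a test of their own.

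**Figure D1:**
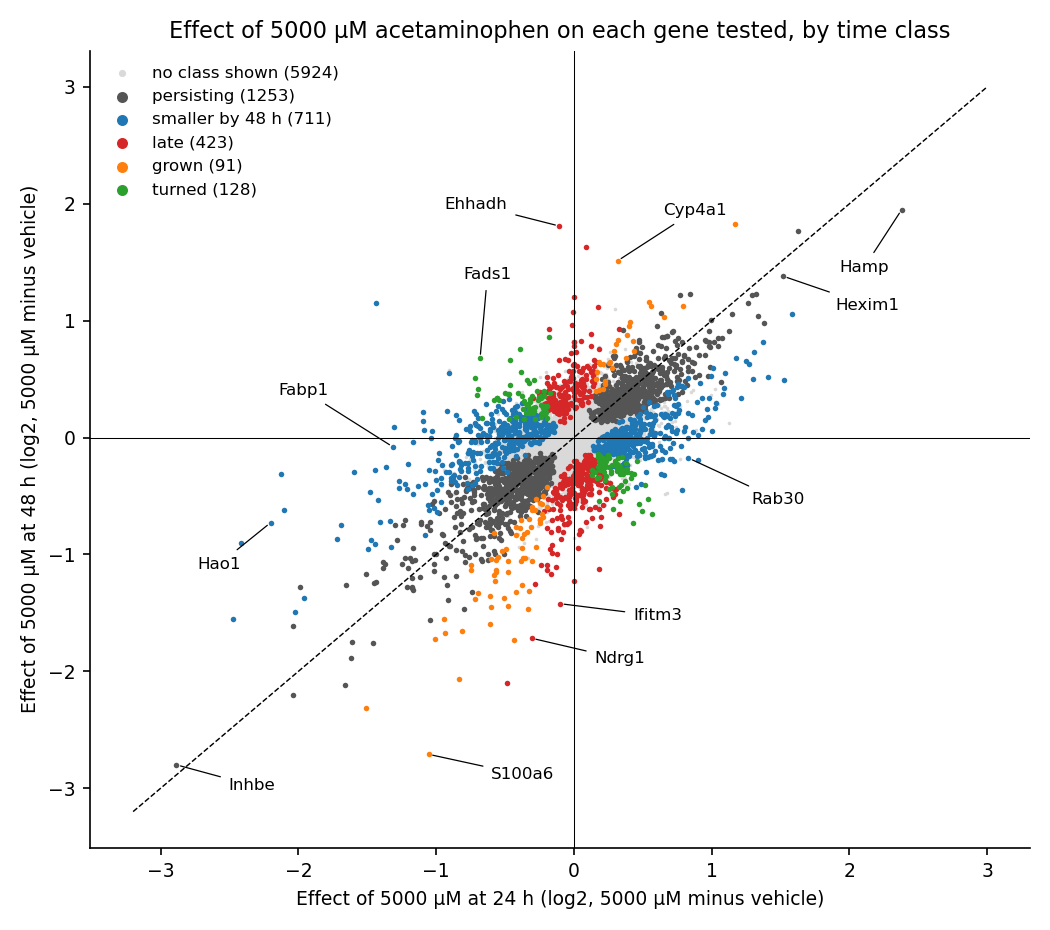
Effect of 5000 µM at 24 h (x axis, log2) against the effect at 48 h (y axis, log2) for each of the 8530 genes, coloured by time class, with 12 genes named and a dashed line of equal effects. Hamp and Inhbe lie near the dashed line far from 0, while Ehhadh lies near 0 at 24 h and at 1.81 at 48 h.

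Over all genes tested the 24 h and 48 h effects, which share no arrays, had a Pearson correlation of 0.57 and a Spearman correlation of 0.48, given as a description across genes that are not independent of each other. Of the genes called at 24 h, 78.2% had the same sign at 48 h and 77.4% had a smaller effect there. Selecting on the other time gave the mirror image: of the genes called at 48 h, 80.9% had the same sign at 24 h and 69.1% had a smaller effect there. A smaller effect at the time not used for selection is thus seen in both directions, and only genes with a called difference are described as smaller by 48 h. The 36 rises of at least 2-fold at 24 h had a median of 1.17 at 24 h and 0.705 at 48 h, and 18 of them had a called difference. The 92 falls of at least 2-fold had medians of -1.23 and -0.85, and 48 had a called difference.

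A change in the effect can come from the treated wells, the vehicle wells or both. Vehicle wells changed with time at 2770 genes (32.5%) and 5000 µM wells at 2293 (26.9%). The β-actin ratio also fell with time in vehicle wells, as given above, and its part in these changes was not tested. For the early falls that were smaller by 48 h, the median change with time was -0.28 in vehicle and 0.21 at 5000 µM. Both arms had a called change for 52 of these 370 genes, vehicle alone for 178 and 5000 µM alone for 126. Early rises in this class had medians of 0.20 in vehicle and -0.22 at 5000 µM. Grown falls differed from these: their median was 0.03 in vehicle and -0.54 at 5000 µM, and 53 of 63 fell with time in the 5000 µM wells. Late rises had medians of -0.20 in vehicle and 0.23 at 5000 µM.

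**Figure D2:**
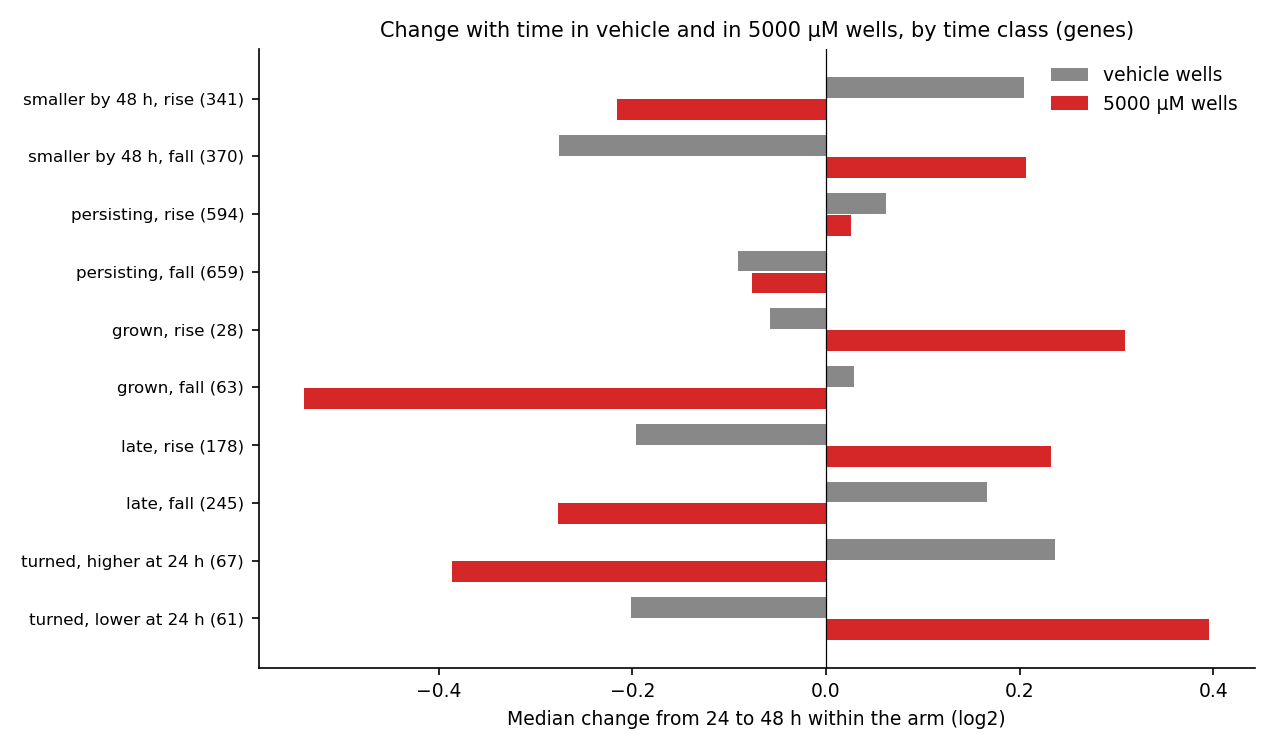
Median change from 24 to 48 h (x axis, log2) within vehicle wells (grey bars) and within 5000 µM wells (red bars), for the genes of each time class and direction, with the number of genes in parentheses. In the smaller, late and turned classes the bars point in opposite directions, while in the grown falls the vehicle median is 0.03 and the 5000 µM median is -0.54. The smaller, late, grown and turned classes require a called difference, which favours bars in opposite directions.

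Among the effects that persisted, the strongest rise was that of Hamp, which encodes hepcidin, the hormone that lowers iron export. Hamp signals at 24 h were 1192, 1503, 1882, 1975 and 2470 in vehicle and 6893, 8112, 9309, 10583 and 11416 at 5000 µM. Hamp signals at 48 h were 1860, 1961, 2075, 2109 and 2514 in vehicle and 5333, 7106, 8286, 10337 and 10633 at 5000 µM. Every treated array lay above every vehicle array at both times. The effect was 2.38 ± 0.18 at 24 h (5.21-fold, adjusted p = 5.01e-12) and 1.95 ± 0.18 at 48 h (3.86-fold, adjusted p = 4.35e-10), with a difference of -0.43 ± 0.26 (95% interval -0.95 to 0.09, adjusted p = 0.263).

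Hexim1, whose protein holds the transcription elongation kinase P-TEFb in an inactive complex, behaved in the same manner. Hexim1 signals at 24 h were 4007, 4210, 4288, 4342 and 4718 in vehicle and 10064, 11637, 12595, 13382 and 14584 at 5000 µM. Hexim1 signals at 48 h were 4329, 4630, 4780, 5466 and 5650 in vehicle and 12248, 12758, 13077, 13166 and 13202 at 5000 µM. The groups did not overlap at either time, and the effects were 2.87-fold (1.52 ± 0.09, adjusted p = 2.91e-15) and 2.61-fold (1.38 ± 0.09, adjusted p = 3.54e-14). The difference was -0.14 ± 0.12 with an interval of -0.39 to 0.11. Of 13 tested P-TEFb and histone genes 8 were higher at 24 h and 9 at 48 h, none was lower, and 2 had a called difference, against 18.6% higher at 24 h, 14.6% higher at 48 h and 16.4% with a called difference among all genes tested. The medians were 0.35 and 0.36, against 0.00 and -0.01 over all genes tested. Hist4h4, a histone H4 gene, rose by 1.62 ± 0.20 and 1.76 ± 0.20, and H1f2, a linker histone gene, by 0.72 ± 0.07 and 0.91 ± 0.07. The vehicle means of Hist4h4 lie below the level of the dimmest gene tested, so the size of its rise depends on the background of the array. The 2 differences in the list were downward and belonged to the variant histones H2ax (1.25 to 0.66, difference -0.59 ± 0.15) and H2az1 (0.73 to 0.36, difference -0.36 ± 0.08). The H2ax difference was not called when all its probe sets were averaged (-0.47, adjusted p = 0.0626), and probe sets of histone genes may detect more than 1 gene.

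Several other rises held. Cyp2e1, the enzyme that oxidises acetaminophen, illustrates an effect that stayed while the level moved. Cyp2e1 signals at 24 h were 5806, 7221, 7461, 7990 and 8258 in vehicle and 11219, 12435, 13041, 13137 and 13167 at 5000 µM. Cyp2e1 signals at 48 h were 3432, 3581, 3739, 4566 and 4742 in vehicle and 5789, 6540, 6848, 7432 and 8786 at 5000 µM. The groups were apart at both times, although both arms fell with time, with changes of -0.88 in vehicle and -0.84 at 5000 µM. The effect was 0.79 ± 0.11 and then 0.82 ± 0.11 (adjusted p = 4.86e-07 and 2.99e-07), with a difference of 0.03 ± 0.15 (interval -0.28 to 0.34). Casp6, an executioner caspase, was higher by 0.62 and 0.60. Gpr108 (1.32 and 1.23), Apeg3 (1.29 and 1.22) and Ocel1 (1.26 and 1.15) were among the largest held rises. The rule that named them required treated arrays apart from vehicle at both times.

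The strongest persisting fall was that of Inhbe, which encodes the activin βE subunit, a secreted product of hepatocytes. Inhbe signals at 24 h were 3520, 3766, 3898, 4342 and 4708 in vehicle and 453, 467, 537, 556 and 761 at 5000 µM. Inhbe signals at 48 h were 3848, 4058, 4363, 4394 and 4473 in vehicle and 553, 560, 562, 578 and 815 at 5000 µM. No treated array came near a vehicle array at either time. Inhbe was 7.39-fold lower at 24 h (-2.88 ± 0.12, adjusted p = 1.69e-18) and 6.96-fold lower at 48 h (-2.80 ± 0.12, adjusted p = 4.17e-18), with a difference of 0.09 ± 0.17 (interval -0.25 to 0.42). Fgf21, another secreted liver hormone, was lower, at -1.02 ± 0.15 and -0.999 ± 0.15, and its effect held as well.

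Cyp7a1, whose product hydroxylates cholesterol in the limiting step towards bile acids, stayed low, but the size of its change with time was not settled. Cyp7a1 signals at 24 h were 1017, 1321, 1502, 1708 and 2088 in vehicle and 296, 306, 326, 452 and 553 at 5000 µM. Cyp7a1 signals at 48 h were 797, 939, 1061, 1202 and 1298 in vehicle and 300, 421, 432, 494 and 549 at 5000 µM. The groups did not overlap at either time. The effects were -1.99 ± 0.19 and -1.28 ± 0.19 (adjusted p = 7.56e-10 and 3.3e-06), and the difference of 0.71 ± 0.27 had an interval of 0.16 to 1.26 and an adjusted p of 0.0692. The treated means of Cyp7a1 lie below the level of the dimmest gene tested, so the size of its fall depends on the background of the array.

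Other persisting falls came from several pathways. Hsd3b5, a steroid dehydrogenase of male rat liver, was lower, at -2.04 ± 0.15 and -1.61 ± 0.15. Steap4, a metalloreductase, was lower, at -1.66 ± 0.23 and -2.11 ± 0.23, and Klkb1, the gene of plasma prekallikrein, was at -1.46 and -1.76. Sult6b2, a sulfotransferase family gene, was lower, at -1.62 and -1.88, Znf750 was at -1.61 and -1.75, and the glucuronosyltransferase gene Ugt2b1 was at -1.17 and -0.94. Members of the sulfotransferase, glucuronosyltransferase and cytochrome P450 families are alike in sequence, and a probe set may detect a neighbour. The desaturase gene Scd2 was lower, at -2.04 and -2.20. Another Scd2 probe set gave -0.06 and -0.57, the fall at 24 h was not called with all probe sets averaged (-0.43, adjusted p = 0.06), and the treated means are below the dimmest gene tested, so its early fall is uncertain.

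Targets of the amino acid stress response were counted next. Of 33 tested targets of ATF4 and CHOP, the transcription factors of the integrated stress response, 5 were higher and 18 lower at 24 h (median -0.27), and 1 was higher and 20 lower at 48 h (median -0.38). Among all genes 18.6% were higher and 19.6% lower at 24 h, and 14.6% and 18% at 48 h. Slc7a1, a cationic amino acid transporter, was lower, at -1.17 ± 0.11 and -1.29 ± 0.11, although the 48 h fall was not called with all probe sets averaged (-0.41, adjusted p = 0.0662). The mitochondrial folate enzyme Aldh1l2 was lower, at -1.25 and -1.08, and the pseudokinase gene Trib3, a CHOP target, was at -0.58 and -0.84. Myc, a growth-promoting transcription factor, was lower, at -0.69 ± 0.09 and -0.74 ± 0.09, and the clock gene Npas2 was at -0.82 and -0.81. Of 55 ribosome biogenesis genes 4 were higher and 23 lower at 24 h and 1 higher and 32 lower at 48 h, against 19.6% and 18% lower among all genes, and their medians were -0.19 and -0.32. The 9 downward differences in that list fell to 2 with the β-actin ratio as a covariate, so no growth of its effect is described.

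**Figure D3:**
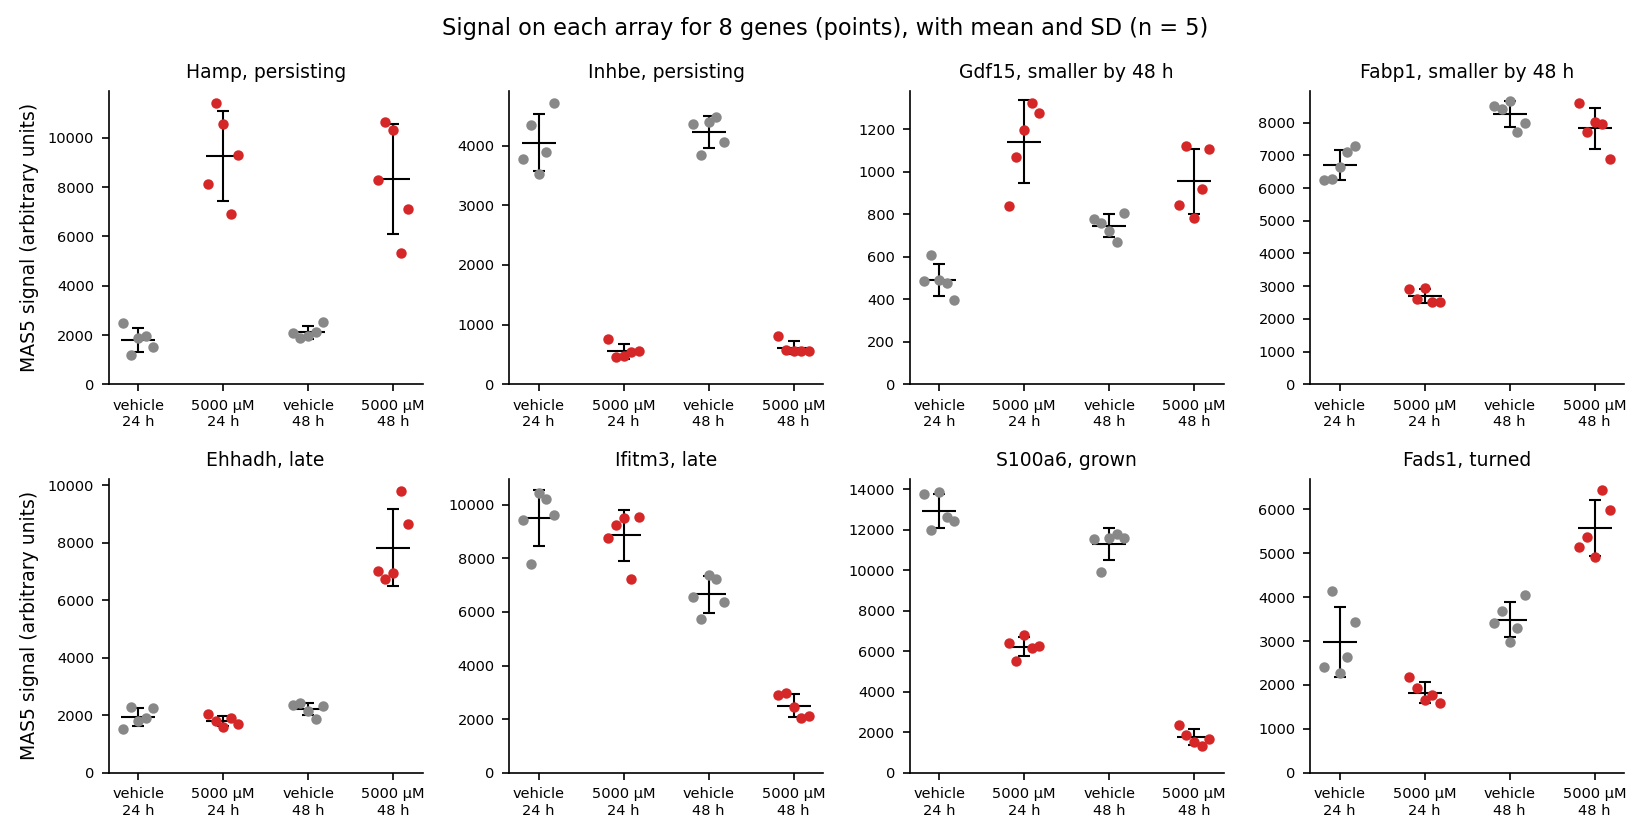
MAS5 signal (y axis, arbitrary units, from 0) on each array for 8 genes, as points for vehicle (grey) and 5000 µM (red) at 24 and 48 h, with the mean and SD of 5 arrays. Hamp and Inhbe keep their separation at 48 h, Fabp1 meets vehicle again, Ehhadh and Ifitm3 separate only at 48 h, and Fads1 lies below vehicle at 24 h and above it at 48 h.

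Effects that were smaller by 48 h included early falls in metabolic genes of the hepatocyte. Hao1, the peroxisomal glycolate oxidase, had one of the largest falls at 24 h. Hao1 signals at 24 h were 4099, 5305, 5323, 6649 and 7534 in vehicle and 1199, 1206, 1225, 1238 and 1280 at 5000 µM. Hao1 signals at 48 h were 5117, 6001, 6100, 6667 and 7613 in vehicle and 3375, 3545, 3792, 3934 and 4274 at 5000 µM. The treated arrays were below vehicle at both times, but the distance was much smaller at 48 h. Hao1 was 4.6-fold lower at 24 h (-2.20 ± 0.13) and 1.66-fold lower at 48 h (-0.73 ± 0.13), a difference of 1.48 ± 0.18 (adjusted p = 7.66e-07). With time the treated wells rose by 1.62 and vehicle changed by 0.14.

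Hao2, a peroxisomal oxidase of longer hydroxy acids, gave -2.10 ± 0.12 and -0.62 ± 0.12, a difference of 1.48 ± 0.16. Acox2, the peroxisomal oxidase of branched-chain fatty acids and bile acid intermediates, gave -1.45 ± 0.10 and -0.28 ± 0.10. Of 21 tested peroxisomal oxidase and D-amino acid genes 4 were higher and 11 lower at 24 h, 8 were higher and 6 lower at 48 h, and 11 differences were upward and 1 downward. Among all genes 18.6% were higher and 19.6% lower at 24 h, 14.6% were higher and 18% lower at 48 h, and 7.74% had an upward and 8.66% a downward difference. The upward differences in the list numbered 12 with the β-actin ratio as a covariate and 11 on the arrays below the gap in that ratio.

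Fabp1, the fatty acid binding protein of the hepatocyte cytosol, lost its early fall. Fabp1 signals at 24 h were 6248, 6285, 6630, 7089 and 7274 in vehicle and 2511, 2528, 2601, 2913 and 2950 at 5000 µM. Fabp1 signals at 48 h were 7728, 7981, 8420, 8519 and 8675 in vehicle and 6881, 7707, 7954, 8029 and 8599 at 5000 µM. The groups were far apart at 24 h and overlapped at 48 h. The effect went from -1.31 ± 0.06 (adjusted p = 7.3e-17) to -0.08 ± 0.06 (adjusted p = 0.359), a difference of 1.23 ± 0.09 (interval 1.05 to 1.41, adjusted p = 3.49e-11). Cdh17, the liver-intestine cadherin, moved in the same way. Cdh17 signals at 24 h were 4893, 5602, 5960, 6917 and 7002 in vehicle and 1877, 2403, 2446, 2789 and 2794 at 5000 µM. Cdh17 signals at 48 h were 3973, 3976, 4278, 5385 and 6258 in vehicle and 4217, 4895, 5001, 5423 and 5653 at 5000 µM. The fall at 24 h was complete across the arrays, and the groups overlapped at 48 h, with effects of -1.30 ± 0.12 and 0.10 ± 0.12 and a difference of 1.40 ± 0.17 (adjusted p = 5.61e-07). Glyat, which joins acyl groups to glycine, gave -1.10 and 0.22, and the glucuronosyltransferase gene Ugt2b10 gave -1.09 and 0.07. Sult2a6, a hydroxysteroid sulfotransferase, gave -2.12 and -0.31, with a treated mean at 24 h below the dimmest gene tested.

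Genes of bile acid synthesis and transport showed the lowest median of the named lists at 24 h. Of 28 tested, 4 were higher and 16 lower at 24 h (median -0.48), 5 were higher and 10 lower at 48 h (median 0.02), and 11 differences were upward and 1 downward, with 9 upward when the β-actin ratio was a covariate. Among all genes 18.6% were higher and 19.6% lower at 24 h, 14.6% and 18% at 48 h, and 7.74% had an upward and 8.66% a downward difference. Slc10a1, the sodium-dependent carrier that takes bile acids up from blood, lost its early fall as well. Slc10a1 signals at 24 h were 8883, 9103, 9133, 9768 and 10435 in vehicle and 3875, 4498, 4528, 5030 and 5226 at 5000 µM. Slc10a1 signals at 48 h were 4970, 5263, 7339, 7615 and 7666 in vehicle and 5536, 5858, 6163, 7324 and 7486 at 5000 µM. The groups were apart at 24 h and overlapped at 48 h, with effects of -1.04 ± 0.11 and -0.01 ± 0.11 and a difference of 1.03 ± 0.16 (adjusted p = 2.54e-05). Here vehicle fell with time, with a change of -0.55, and the treated wells rose by 0.48, so both arms took part.

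Abcb11, the bile salt export pump, went from -0.85 ± 0.10 to 0.20 ± 0.10, and the uptake carrier Slco1b2 from -0.84 ± 0.10 to 0.15 ± 0.10. Baat, which conjugates bile acids to amino acids, went from -0.92 ± 0.14 to 0.23 ± 0.14. At 48 h all 5 treated arrays of Abcb11 and of Baat lay above all vehicle arrays, although neither effect was called there. The carrier Slco1a4 went from -1.42 to -0.53, but its difference was not called with the ratio as a covariate (0.79, adjusted p = 0.0727).

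Genes of amino acid breakdown included both shrinking and persisting falls. Of 59 tested urea cycle and amino acid catabolism genes, 31 were lower and 3 higher at 24 h, 16 were lower and 8 higher at 48 h, and 20 differences were upward and 1 downward (17 upward with the ratio as a covariate). Among all genes 19.6% were lower and 18.6% higher at 24 h, 18% were lower and 14.6% higher at 48 h, and 7.74% had an upward and 8.66% a downward difference. Hgd, an enzyme of tyrosine breakdown, went from -1.21 ± 0.07 to -0.22 ± 0.07, and Fah, the last enzyme of that pathway, from -0.71 ± 0.06 to -0.24 ± 0.06. Ftcd, of histidine breakdown, went from -0.89 to -0.07, and the proline pathway gene Aldh4a1 from -0.74 to -0.02. In the kynurenine pathway of tryptophan Afmid went from -0.86 to 0.00 and Haao from -1.48 to -0.46, while Kmo, 1 of the steps between them, stayed at -1.17 and -1.30 (difference -0.13 ± 0.17, interval -0.48 to 0.22). Aass, the first enzyme of lysine breakdown, also persisted, at -1.44 and -1.23. Hal, the first enzyme of histidine breakdown, was lower, at -1.11 and -0.74, with a difference of 0.37 that just missed the threshold (adjusted p = 0.0532). The mitochondrial carbonic anhydrase gene Car5a kept a large fall, -2.02 and -1.50, and its difference was not called with the ratio as a covariate (0.41, adjusted p = 0.0787).

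Genes of lipid synthesis also included falls that shrank. Of 31 tested fatty acid synthesis genes 17 were lower and 2 higher at 24 h (median -0.22), 5 were lower and 9 higher at 48 h (median 0.06), and all 12 called differences were upward, 10 with the ratio as a covariate. All genes tested gave 19.6% lower and 18.6% higher at 24 h, 18% and 14.6% at 48 h, and 7.74% with an upward difference. Fasn, the fatty acid synthase, went from -0.71 ± 0.13 to 0.20 ± 0.13, and Srebf1, the transcription factor that drives it, from -0.66 ± 0.11 to 0.04 ± 0.11. Pklr, the liver pyruvate kinase, went from -1.13 to -0.41. Nr1h3, which encodes the oxysterol receptor LXR-alpha, went from -0.99 to -0.63, a difference of 0.36 that was not called with the ratio as a covariate (0.35, adjusted p = 0.0664) or without vehicle 48 h replicate 2 (0.30, adjusted p = 0.0556). The glycogen synthase gene Gys2 went from -1.41 to -0.72 (0.62 with the covariate, adjusted p = 0.0604).

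Of 38 tested genes of protein folding and degradation in the endoplasmic reticulum, 14 were lower and 2 higher at 24 h, 4 were lower and 9 higher at 48 h, and all 13 called differences were upward (9 with the covariate). The other 25 had no called difference. Over all genes tested the shares were 19.6% lower and 18.6% higher at 24 h, 18% and 14.6% at 48 h, and 7.74% with an upward difference. Manf, a secreted protein of stressed reticulum, went from -0.33 ± 0.06 to 0.02 ± 0.06, and Herpud1, of reticulum-associated degradation, from -0.29 to 0.09. Calr, the calcium-binding chaperone calreticulin, was not called at 24 h (-0.07) and was higher at 48 h (0.48 ± 0.08, difference 0.55). Hspa5, the main chaperone of the compartment, had effects of -0.09 and 0.08 with no call at either time, and its difference of 0.17 was not called (adjusted p = 0.177), although quantile normalization gave a call (0.16, adjusted p = 0.0344).

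Early rises that shrank included signalling and cell cycle genes. Gdf15, a stress hormone of the TGF-beta family, is a clear instance. Gdf15 signals at 24 h were 395, 475, 486, 490 and 608 in vehicle and 840, 1069, 1198, 1276 and 1324 at 5000 µM. Gdf15 signals at 48 h were 669, 719, 760, 778 and 806 in vehicle and 783, 845, 920, 1107 and 1119 at 5000 µM. All treated arrays exceeded vehicle at 24 h, and the groups overlapped at 48 h. The effect went from 1.21 ± 0.15 (adjusted p = 1.54e-07) to 0.34 ± 0.15 (adjusted p = 0.088), a difference of -0.87 ± 0.22 (adjusted p = 0.00549), while vehicle rose by 0.62 and the treated wells changed by -0.25.

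Rab30, a small GTPase of the Golgi, also lost its early rise. Rab30 signals at 24 h were 4628, 5692, 5724, 5951 and 6452 in vehicle and 8771, 9121, 10204, 10505 and 12084 at 5000 µM. Rab30 signals at 48 h were 7765, 8290, 8832, 9900 and 13396 in vehicle and 7022, 8135, 8405, 9251 and 9263 at 5000 µM. The groups were apart at 24 h and overlapped at 48 h, as vehicle rose by 0.74 while the treated wells changed by -0.27. The effect went from 0.83 ± 0.13 to -0.17 ± 0.13, a difference of -1.01 ± 0.18 (adjusted p = 0.000193). Another Rab30 probe set gave 0.75 and 0.30, with no called difference.

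Pdk4, the kinase that closes pyruvate dehydrogenase and spares glucose, kept part of its rise. Pdk4 signals at 24 h were 5459, 5545, 5569, 6086 and 6388 in vehicle and 13025, 14246, 14479, 14854 and 15149 at 5000 µM. Pdk4 signals at 48 h were 4261, 4315, 4503, 4870 and 6013 in vehicle and 7279, 7289, 8043, 8408 and 8478 at 5000 µM. The groups were apart at both times, and the effect went from 2.47-fold (1.31 ± 0.08) to 1.66-fold (0.73 ± 0.08), a difference of -0.58 ± 0.11 (adjusted p = 0.000373).

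Further early rises shrank as well. Lgr4, a receptor for R-spondins, went from 1.01 ± 0.15 to 0.05 ± 0.15, and Rnf151 from 0.90 ± 0.10 to 0.02 ± 0.10. Ptpn18, a tyrosine phosphatase, went from 1.41 to 0.52, Pkib, an inhibitor of protein kinase A, from 1.52 to 0.50, and the zinc finger gene Giot1 from 0.79 to -0.45. Other probe sets gave 0.69 and 0.10 for Ptpn18, 0.84 and 0.36 for Pkib and -0.08 and -0.24 for Rnf151, each with no called difference. That of Rnf151 was dim, with a geometric mean signal of 207. Adm, which encodes the vasodilator adrenomedullin, went from 0.95 to 0.15 as vehicle rose by 0.95. Serpine2, a protease inhibitor, went from 1.58 to 1.06 while its level rose with time in both arms, by 1.61 in vehicle and 1.09 at 5000 µM. Among 14 tested cell cycle genes, Pcna, the sliding clamp of DNA replication, went from 0.68 ± 0.06 to 0.18 ± 0.06 and Stmn1, a microtubule regulator, from 1.27 to 0.63. In that list 5 were higher and 1 lower at each time, and 2 differences were upward and 4 downward, where all genes gave 18.6% and 14.6% higher, 19.6% and 18% lower, 7.74% upward and 8.66% downward.

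The largest late rise and the largest change among grown rises were in genes of fatty acid oxidation. Of 39 tested genes of fatty acid oxidation or PPAR-alpha control, 9 were late rises and 5 grown rises. In this list 16 were higher and 5 lower at 24 h (median 0.15), 28 were higher and 4 lower at 48 h (median 0.47), and 16 differences were upward and 1 downward. Among all genes 18.6% were higher and 19.6% lower at 24 h, 14.6% were higher and 18% lower at 48 h, and 7.74% had an upward and 8.66% a downward difference. The count changed little with the β-actin ratio as a covariate (15 upward, 1 downward) and on the arrays below the gap in the ratio (13 and 1). The largest late rise was that of Ehhadh, whose bifunctional protein carries out the middle steps of peroxisomal β-oxidation. Ehhadh signals at 24 h were 1536, 1809, 1914, 2239 and 2289 in vehicle and 1586, 1699, 1805, 1914 and 2037 at 5000 µM. Ehhadh signals at 48 h were 1859, 2157, 2306, 2345 and 2428 in vehicle and 6735, 6946, 7026, 8661 and 9809 at 5000 µM. The groups overlapped at 24 h, and at 48 h every treated array was far above every vehicle array. The effect was -0.10 ± 0.12 at 24 h (adjusted p = 0.539) and 1.81 ± 0.12 at 48 h (3.51-fold, adjusted p = 2.97e-13), a difference of 1.92 ± 0.17 (adjusted p = 5.93e-09), made almost wholly in the treated wells, which rose by 2.10 against 0.19 in vehicle.

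Cyp4a1 and Cyp4a3, cytochrome P450 enzymes that hydroxylate fatty acids at their far end and are classical PPAR-alpha targets in rat liver, were also higher mainly at 48 h. Cyp4a1 signals at 24 h were 4912, 6805, 7150, 8463 and 8518 in vehicle and 8068, 8539, 8598, 9290 and 9420 at 5000 µM. Cyp4a1 signals at 48 h were 9618, 10116, 11356, 12044 and 12774 in vehicle and 26751, 29885, 30907, 34990 and 37295 at 5000 µM. The groups overlapped at 24 h and were apart at 48 h, with effects of 0.32 ± 0.11 and 1.51 ± 0.11 and a difference of 1.20 ± 0.16 (adjusted p = 2.83e-06). Cyp4a3 went from -0.01 ± 0.10 to 0.96 ± 0.10. The 2 genes are close relatives, and their probe sets may detect each other.

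Other members of the list had smaller upward differences. Acsl1, which activates long-chain fatty acids to their CoA esters, had a grown rise, from 0.40 ± 0.07 to 0.96 ± 0.07. Ech1, of unsaturated fatty acid oxidation, went from 0.12 to 0.56, and Acadm, the medium-chain acyl-CoA dehydrogenase, from 0.13 to 0.48. Hadha and Acaa2, of mitochondrial β-oxidation, went from -0.02 to 0.72 and from 0.00 to 0.63 on their brightest probe sets. With all probe sets averaged the Hadha difference was -0.14 (adjusted p = 0.769), opposite in sign, and that of Acaa2 was 0.35 (adjusted p = 0.0511), so these differences rest on 1 probe set each.

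Not every target of the receptor followed this course. Angptl4, a secreted inhibitor of lipoprotein lipase, had held rises, 1.15 ± 0.06 and 1.06 ± 0.06, with a difference of -0.09 (interval -0.27 to 0.08). Cpt1a, the entry step of mitochondrial fatty acid oxidation, was higher by 0.78 and 0.66. Crot, the peroxisomal carnitine octanoyltransferase, was higher by 0.75 and 0.79, and Pex11a, a peroxisome division factor, by 0.61 and 0.79. Other probe sets gave larger early rises for both, 1.38 and 0.94 for Crot and 1.42 and 0.88 for Pex11a. Thus members of 1 list persisted (Angptl4), shrank from a rise (Pdk4), shrank from a fall (Fabp1), grew (Cyp4a1) and appeared late (Ehhadh).

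**Figure D4:**
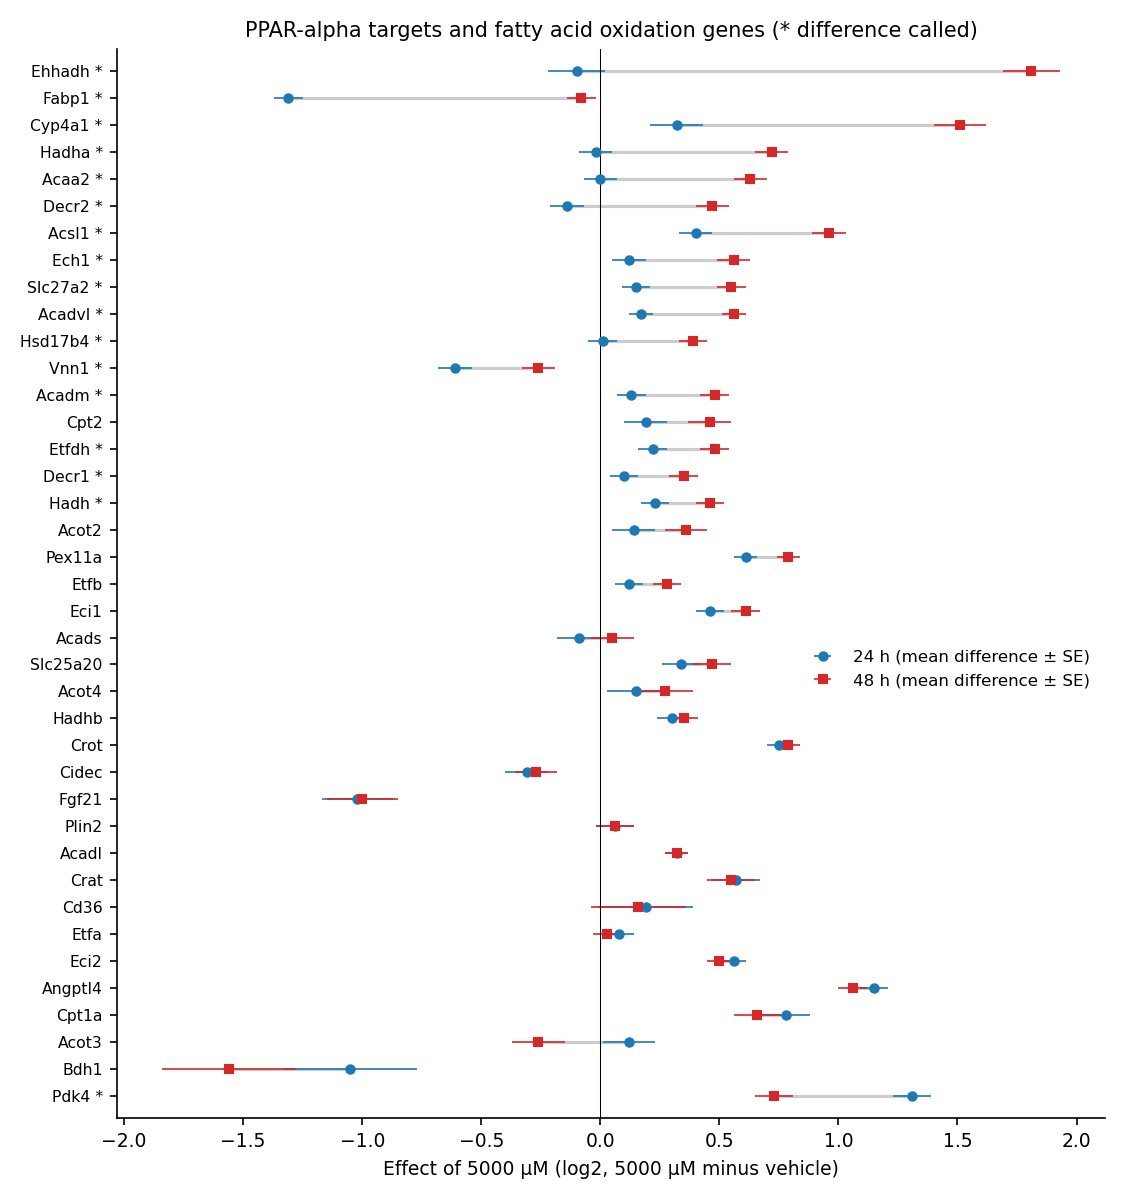
Effect of 5000 µM (x axis, log2, mean difference ± standard error) at 24 h (blue circles) and 48 h (red squares) for the 39 tested genes of fatty acid oxidation or PPAR-alpha control, ordered by the difference, with an asterisk where the difference was called. Ehhadh, Fabp1 and Cyp4a1 have the longest upward distances and Pdk4 the longest downward distance.

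The promoters of 3 of these genes are shown because the genes moved upward between the times by different routes: Ehhadh and Cyp4a3 from no call at 24 h to a rise, and Fabp1 from a fall to no call. Each sequence is the 250 bases before the gene start, read in the direction of the gene, from RefSeq on build GRCr8. Ehhadh is at chr11:92746159-92746408 on the plus strand, Cyp4a3 at chr5:134352237-134352486 on the minus strand and Fabp1 at chr4:104749090-104749339 on the plus strand. Capitals mark matches on either strand to the letters AGGTCA, which read TGACCT on the opposite strand, the half-site that RXR partners such as PPAR-alpha bind in pairs.
Ehhadh: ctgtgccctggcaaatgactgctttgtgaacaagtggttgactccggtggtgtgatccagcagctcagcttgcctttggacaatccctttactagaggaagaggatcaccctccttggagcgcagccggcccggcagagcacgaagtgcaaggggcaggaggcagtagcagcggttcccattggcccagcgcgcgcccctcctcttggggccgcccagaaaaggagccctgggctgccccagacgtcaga
Cyp4a3: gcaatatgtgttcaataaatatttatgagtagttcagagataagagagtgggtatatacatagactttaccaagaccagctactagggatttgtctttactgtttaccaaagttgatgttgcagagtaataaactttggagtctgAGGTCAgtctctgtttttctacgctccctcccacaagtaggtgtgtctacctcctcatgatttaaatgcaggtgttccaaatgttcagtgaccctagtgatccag
Fabp1: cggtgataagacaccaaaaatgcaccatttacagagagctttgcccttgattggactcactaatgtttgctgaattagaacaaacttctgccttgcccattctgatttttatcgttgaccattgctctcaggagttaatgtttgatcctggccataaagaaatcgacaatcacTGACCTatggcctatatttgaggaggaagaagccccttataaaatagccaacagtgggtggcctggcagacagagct
The Cyp4a3 match starts 105 bases before the gene start and the Fabp1 match 77 bases before it, while the Ehhadh window holds none. The promoters of Angptl4 and Pdk4 hold none either, and for Cyp4a1 the table has no single entry. Of 33469 promoters of this length 4707 hold the half-site (14.1%). The matches describe these windows only, and their part in the response was not tested.

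Late rises outside the list included transport and other genes. Slc6a13, a carrier for GABA and taurine, had the second largest late rise by the naming rule. Slc6a13 signals at 24 h were 1244, 1529, 1557, 1700 and 1772 in vehicle and 1348, 1469, 1760, 1811 and 1916 at 5000 µM. Slc6a13 signals at 48 h were 1367, 1542, 1599, 1667 and 1763 in vehicle and 4481, 4700, 4971, 5160 and 5222 at 5000 µM. The groups overlapped at 24 h and were apart at 48 h, with effects of 0.09 ± 0.13 and 1.63 ± 0.13 and a difference of 1.54 ± 0.18 (adjusted p = 3.25e-07). Spc24, a kinetochore subunit, went from 0.00 to 1.20, Gstt3, a glutathione transferase, from 0.00 to 1.08, and Clybl, a mitochondrial CoA lyase, from 0.12 to 0.89. Lrp1, a large endocytic receptor, went from -0.18 to 0.93 as vehicle fell, with a change of -1.003, while the treated wells changed by 0.11, and its difference was not called with all probe sets averaged (0.57, adjusted p = 0.446). Grown rises included Abhd1 (0.54 to 1.16) and Isyna1, the first enzyme of inositol synthesis (0.41 to 0.99), the latter not called with the covariate (0.46, adjusted p = 0.0889). Another Abhd1 probe set gave 0.60 and 1.00, with no called difference.

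Late and grown falls were led by S100a6, a small calcium-binding protein. S100a6 signals at 24 h were 11969, 12419, 12626, 13774 and 13868 in vehicle and 5538, 6163, 6243, 6421 and 6781 at 5000 µM. S100a6 signals at 48 h were 9915, 11525, 11580, 11595 and 11804 in vehicle and 1328, 1525, 1669, 1881 and 2374 at 5000 µM. The groups were apart at both times and much farther at 48 h. S100a6 was 2.08-fold lower at 24 h (-1.05 ± 0.12) and 6.54-fold lower at 48 h (-2.71 ± 0.12), a difference of -1.66 ± 0.16 (adjusted p = 2.7e-08), with a change over time of -1.85 in treated wells against -0.20 in vehicle.

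Its list of 32 tested cytoskeleton and dedifferentiation genes had 3 members higher and 9 lower at 24 h (median -0.10), none higher and 23 lower at 48 h (median -0.34), and 14 differences downward and none upward (12 downward with the β-actin ratio as a covariate). Among all genes 18.6% were higher and 19.6% lower at 24 h, 14.6% were higher and 18% lower at 48 h, and 7.74% had an upward and 8.66% a downward difference. Tagln2, an actin-binding protein, went from -0.94 ± 0.10 to -1.56 ± 0.10, and the tropomyosin Tpm4 from -0.56 ± 0.07 to -1.15 ± 0.07. The annexin Anxa3 went from -0.24 to -1.09 and the galectin Lgals3 from -0.04 to -0.73. Anxa2 went from -0.12 to -0.56 on its brightest probe set, a difference not called with all probe sets averaged (-0.40, adjusted p = 0.211). Vim, the intermediate filament vimentin, was already low at 24 h and stayed there, at -0.91 ± 0.12 and -0.93 ± 0.12. Summed stellate cell and fibroblast markers were also lower at 5000 µM than in vehicle at both times, as given above, a sum carried mostly by Lox and Dpt. Of the 5 tested markers 1 was lower at 24 h and 3 at 48 h, and 0 were called higher. Another Dpt probe set gave 0.08 and -0.34. Mean signals of Sparc, a tested marker, went the other way with no call: 638 in vehicle and 802 at 5000 µM at 24 h, then 760 and 910 at 48 h. The part of such cells in these falls was not tested.

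Ifitm3, an interferon-induced membrane protein, showed no call at 24 h and a strong fall at 48 h. Ifitm3 signals at 24 h were 7788, 9435, 9607, 10209 and 10448 in vehicle and 7237, 8745, 9263, 9495 and 9551 at 5000 µM. Ifitm3 signals at 48 h were 5730, 6368, 6544, 7240 and 7398 in vehicle and 2062, 2114, 2456, 2907 and 2984 at 5000 µM. The groups overlapped at 24 h and were apart at 48 h, with effects of -0.10 ± 0.10 and -1.42 ± 0.10 and a difference of -1.32 ± 0.15 (adjusted p = 2.22e-07). RT1-CE5, a class I histocompatibility gene whose probe sets may detect its relatives, went from 0.18 to -1.13. The summed signal of 21 Kupffer cell and leukocyte markers ran from 25934 to 33330 in vehicle and from 22575 to 25374 at 5000 µM at 24 h, then from 26678 to 30872 and from 23158 to 25604 at 48 h. This sum was carried mostly by Cd14 and Lyz2, and only 3 of the 21 markers were among the genes tested. Mean Cd14 signals were 18340 in vehicle and 12579 at 5000 µM at 24 h, then 16534 and 13597 at 48 h. Those of Cd68 were 823 and 934, then 922 and 858. The part of such cells in the falls of Ifitm3 and RT1-CE5 was not tested. Isg15, an interferon-induced ubiquitin-like protein, went from -0.61 to -1.36, but its call was lost on leaving out any of 11 arrays in turn (differences from -0.88 to -0.62) and with the covariate (-0.62, adjusted p = 0.177).

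Ndrg1, a stress-responsive gene also induced by hypoxia, fell late. Ndrg1 signals at 24 h were 3185, 3748, 3940, 4447 and 5430 in vehicle and 2246, 3271, 3383, 3590 and 4419 at 5000 µM. Ndrg1 signals at 48 h were 4356, 4685, 4982, 5046 and 5077 in vehicle and 1039, 1408, 1446, 1687 and 1898 at 5000 µM. The groups overlapped at 24 h and were apart at 48 h. The effect went from -0.30 ± 0.16 (adjusted p = 0.129) to -1.72 ± 0.16 (adjusted p = 3.12e-10), a difference of -1.41 ± 0.22. Pfkp, a phosphofructokinase isoform low in normal liver, went from -0.20 to -1.14, Ampd3, an AMP deaminase, from -0.28 to -1.25, and Sfn, the 14-3-3 sigma protein, from 0.00 to -1.23. In Pfkp and Sfn most of this was a rise of vehicle, by 0.69 and 0.89, that the treated wells did not share (-0.25 and -0.34). The small heat shock protein gene Hspb1 went from 0.12 to -0.61.

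Akr1b8, an aldo-keto reductase counted among NRF2 targets, had one of the largest grown falls. Akr1b8 signals at 24 h were 2231, 2679, 2900, 2901 and 3060 in vehicle and 1416, 1442, 1526, 1541 and 1774 at 5000 µM. Akr1b8 signals at 48 h were 2800, 3003, 3312, 3749 and 4519 in vehicle and 704, 745, 805, 889 and 982 at 5000 µM. The groups were apart at both times, with effects of -0.83 ± 0.13 and -2.06 ± 0.13 and a difference of -1.23 ± 0.18 (adjusted p = 1.45e-05). Slc7a11, the cystine carrier that feeds glutathione synthesis, went from -0.58 ± 0.10 to -1.23 ± 0.10, and Maff, a small Maf factor, from -0.93 to -1.67. Secreted proteins in this class were the complement protein C9 (-0.34 to -1.47), the apolipoprotein Apoa5 (-0.72 to -1.38) and Wfdc21 (-0.43 to -1.73). Gpt, the alanine aminotransferase measured in blood as a sign of liver injury, went from -0.61 ± 0.13 to -1.60 ± 0.13 as a transcript.

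Of the sex-typical P450 genes of rat liver, Cyp2c11, typical of males, went from -0.70 ± 0.12 to -1.33 ± 0.12, and Cyp2c12, typical of females, from -0.48 ± 0.34 to -2.10 ± 0.34. The Cyp2c11 difference of -0.63 was not called with the β-actin ratio as a covariate (-0.51, adjusted p = 0.0649). That of Cyp2c12 (-1.61) was not called with the covariate (-1.61, adjusted p = 0.0518) or on the arrays below the gap in the ratio (-1.37, adjusted p = 0.22), and its treated mean at 48 h is below the dimmest gene tested. Leaving out 1 array at a time moved the Cyp2c12 difference between -1.86 and -1.02.

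The genes that turned were lower early and higher late, or the reverse. Fads1, a desaturase of polyunsaturated fatty acids, had the largest such difference. Fads1 signals at 24 h were 2279, 2411, 2634, 3437 and 4144 in vehicle and 1580, 1654, 1777, 1933 and 2171 at 5000 µM. Fads1 signals at 48 h were 2984, 3302, 3415, 3683 and 4044 in vehicle and 4909, 5154, 5372, 5984 and 6450 at 5000 µM. Treated arrays lay wholly below vehicle at 24 h and wholly above it at 48 h. The effects were -0.68 ± 0.12 (adjusted p = 5.61e-05) and 0.68 ± 0.12 (adjusted p = 6.97e-05), a difference of 1.36 ± 0.18 (adjusted p = 2.33e-06).

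Cyp8b1, the sterol hydroxylase that sets the share of cholic acid among bile acids, crossed in the same sense. Cyp8b1 signals at 24 h were 13126, 13961, 14142, 14861 and 16077 in vehicle and 7371, 7453, 9343, 9781 and 10323 at 5000 µM. Cyp8b1 signals at 48 h were 11067, 11506, 13243, 14710 and 16183 in vehicle and 17641, 18379, 19013, 19013 and 19885 at 5000 µM. The groups did not overlap at either time, and the effects were -0.72 ± 0.10 and 0.51 ± 0.10, a difference of 1.22 ± 0.14 (adjusted p = 3.82e-07).

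Hacl1, of peroxisomal α-oxidation, went from -0.18 to 0.86, Mttp, which loads lipid onto lipoproteins, from -0.34 to 0.49, the glutathione transferase Gsta3 from -0.67 to 0.17, and the thymidine kinase Tk1 from -0.39 to 0.56. The reticulum oxidoreductase genes Pdia4 and Ero1b went from -0.31 to 0.22 and from -0.35 to 0.28, the latter not called with all probe sets averaged (difference 0.14, adjusted p = 0.68). In the other sense the cytokine gene Il33 went from 0.57 to -0.65 and Ccdc61 from 0.43 to -0.73. Another Il33 probe set gave 0.19, which was not called, and -0.79, so the early rise of Il33 rests on 1 probe set.

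Ddit3, which encodes the stress factor CHOP, was higher early and lower late. Ddit3 signals at 24 h were 3887, 4448, 4460, 4534 and 4767 in vehicle and 4571, 5157, 5200, 5452 and 6472 at 5000 µM. Ddit3 signals at 48 h were 4587, 4636, 4813, 4852 and 4892 in vehicle and 3262, 3306, 3523, 3704 and 4035 at 5000 µM. The groups overlapped at 24 h and were apart at 48 h, with effects of 0.28 ± 0.08 (adjusted p = 0.00758) and -0.42 ± 0.08 (adjusted p = 0.000138) and a difference of -0.69 ± 0.12 (adjusted p = 8.08e-05). Of the 128 genes that turned, 67 were first higher and 61 first lower, against 46 and 63 of 109 when arrays were centred on their medians, so the balance of directions depends on the scaling.

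NRF2, a transcription factor activated by electrophiles, has targets often used to follow acetaminophen injury. Of 31 tested NRF2 targets 1 was higher and 12 lower at 24 h, 1 was higher and 13 lower at 48 h, and 3 differences were upward and 3 downward. Among all genes 18.6% were higher and 19.6% lower at 24 h, 14.6% and 18% at 48 h, and 16.4% had a called difference, so the count of differences in the list lies near that of all genes. Nqo1, a quinone reductase, had effects of 0.12 ± 0.07 and 0.05 ± 0.07 with a difference of -0.08 (interval -0.29 to 0.14), and Srxn1, sulfiredoxin, -0.02 and -0.16 (interval of the difference -0.33 to 0.05). Txnrd1, thioredoxin reductase, had effects of 0.05 and 0.21 on its brightest probe set and 0.54 and 0.18 on another. Gclc and Gclm, the subunits of the first enzyme of glutathione synthesis, had differences of 0.16 (interval -0.03 to 0.34) and -0.28 (interval -0.50 to -0.07). The Gclm difference missed the threshold (adjusted p = 0.0647) and was called with runs of 6 consecutive title numbers as a block (-0.28, adjusted p = 0.0239). Hmox1, heme oxygenase 1, was lower, at -0.33 ± 0.08 and -0.48 ± 0.08. Cyp1a2 and Cyp3a23-3a1, other P450 genes of drug oxidation, had differences of 0.25 ± 0.17 and 0.16 ± 0.11 with no call at either time, although Cyp1a2 fell with time in both arms, with changes of -1.45 in vehicle and -1.20 at 5000 µM.

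Of 22 tested p53 targets 6 were higher and 4 lower at 24 h, 2 were higher and 6 lower at 48 h, and 1 difference was upward and 4 downward. Among all genes 18.6% were higher and 19.6% lower at 24 h, 14.6% and 18% at 48 h, and 7.74% had an upward and 8.66% a downward difference, and with arrays centred on their medians 3 targets were higher and 3 lower at 48 h. Ccng1, cyclin G1, went from -0.27 ± 0.08 to -0.94 ± 0.08, and Ddb2, of DNA repair, from 0.59 to 0.15 (not called with all probe sets averaged, -0.47, adjusted p = 0.167). The probe sets of Cdkn1a, an inhibitor of the cell cycle, disagreed in sign, with a difference of 0.18 on the brightest and -0.52 on another. Those of Mdm2, which marks p53 for degradation, were all negative but unequal: -0.04 on the brightest, which was not called, and -0.45 and -0.99 on others. With all Mdm2 probe sets averaged the difference was called (-0.49, adjusted p = 0.00682). Atf3, an immediate early stress factor, had a difference of -0.28 (interval -0.62 to 0.06), Asns, the asparagine synthetase, of -0.29 (interval -0.56 to -0.02), and Ccn2, a connective tissue growth factor, of -0.02 (interval -0.28 to 0.23). The Asns difference was called with title runs as a block (-0.29, adjusted p = 0.0228).

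**Figure D5:**
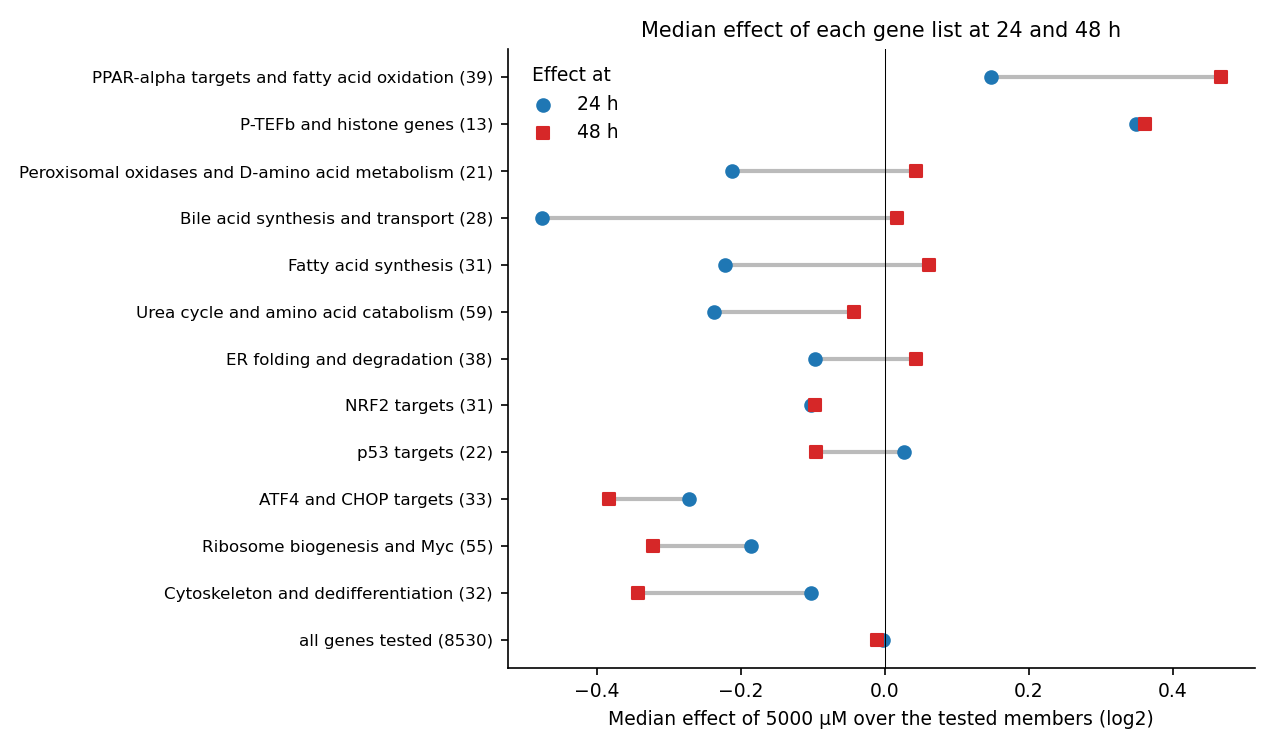
Median effect of 5000 µM (x axis, log2) over the tested members of 12 gene lists at 24 h (blue circles) and 48 h (red squares), with the number of members in parentheses and all genes tested in the bottom line. The bile acid list moves from -0.48 to 0.02, the PPAR-alpha list from 0.15 to 0.47 and the cytoskeleton list from -0.10 to -0.34. Lists share members, and none was given a test.

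Several genes that the naming rule gave have less certain differences. Bcar1, an adhesion adaptor, had the largest difference by this rule, 2.59 ± 0.68. Bcar1 signals at 24 h were 1110, 1119, 1129, 1427 and 1492 in vehicle and 166, 404, 424, 739 and 982 at 5000 µM. Bcar1 signals at 48 h were 120, 154, 155, 157 and 170 in vehicle and 114, 233, 407, 580 and 658 at 5000 µM. The spread at 5000 µM was wide, 3 of the group means are below the dimmest gene tested, vehicle itself changed by -3.05 with time, and the difference was not called with the β-actin ratio as a covariate (1.84, adjusted p = 0.0768).

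Olr59 (1.51 ± 0.50), Ptov1 (1.46 ± 0.48), Csrnp1 (-0.94 ± 0.30), Abhd15 (0.66 ± 0.23) and Btd (0.61 ± 0.19) lost their calls with the covariate, where the differences were 1.04, 1.26, -0.96, 0.46 and 0.59. They also lost them on leaving out single arrays, any of 8 arrays for Olr59 (1.02 to 1.79 over all 20), 6 for Ptov1 (1.18 to 1.68), 3 for Csrnp1 (-1.15 to -0.73), 15 for Abhd15 (0.50 to 0.76) and 4 for Btd (0.52 to 0.74). Other probe sets did not bear out Rnf138 (-0.93, or -0.10 with all averaged), Tkfc (0.94, or 0.40), Mbl2 (0.53, or 0.05) and Arhgap10 (-0.999, or 0.28 and so opposite in sign).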

How the data were processed

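Per the labels, RNA of each well was labelled as biotinylated cRNA and hybridised to a single-colour Affymetrix rat array, and per the submitters' processing notes signals came from MAS5; the labels and notes used here name no version, scaling target or scanner setting. The authors deposited 1 linear intensity for each of 31099 probe sets and 30 arrays. The deposited arrays share a trimmed mean (1500.55 to 1500.66, 2% trimmed at each end), so they were scaled alike before deposit and a change of total RNA per well is not seen. No 2 arrays were identical, and the highest correlation between any was 0.9565. A linear array intensity carries no count depth, and the number of arrays limits the precision.

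Values were taken to log2 with no pseudocount and no further normalization. After 57 control probe sets were left out, 20826 probe sets had 1 gene symbol, 436 several and 9780 none. The platform annotation was updated through Entrez identifiers for 20758 of them. The brightest probe set stood for each of 14217 genes, and the brightest 60% were tested, 8530 genes with a geometric mean signal of at least 469. limma 3.58.1 in R 4.3.3 fitted 6 group means over all 30 arrays (24 residual degrees of freedom, trended variance), with contrasts for both effects, their difference and the change with time in each arm, and Benjamini-Hochberg adjustment per contrast at 0.05. The code was tested on simulated data with independent noise and no effect of the 3'/5' β-actin ratio, so that test does not bear on the ratio. The 3'/5' β-actin ratio was compared by exact permutation. Fits with this ratio as a covariate, with the arrays above and below its largest gap (1.544 to 1.735; above it 3 vehicle, 3 of 500 µM and 1 of 5000 µM at 24 h, and 5 of 500 µM at 48 h) as a block, or with the arrays below the gap alone, test the dependence on it.

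Genes were named by a rule: those with the largest effects or differences in each time class, a fixed set for the compound, and up to 4 members of each gene list. Genes named as smaller by 48 h had to have all treated arrays beyond all vehicle arrays at 24 h. Persisting genes had to have this at both times and late genes at 48 h. For genes named by these classes the separation of arrays was thus a condition of entry and no added support. The rule gives 211 genes, of which 121 are described. A further 29 were chosen after their values were seen: Acsl1, Hadha, Acaa2, Calr, Ech1, Acadm, Lgals3, Anxa2, Pex11a, Cpt1a, Crot, Hal, Kmo, Vim, H2az1, Abcb11, Slc10a1, Slco1b2, Hgd, Fasn, Afmid, Ftcd, Aldh4a1, Srebf1, Fah, Herpud1, Manf, Hacl1 and Pdia4. Members and lists were chosen with earlier results of these data known. Gene list counts under the covariate, the arrays below the gap and median centring were added after seeing the data. Of the fixed genes Mt1 was not among those tested, and some items are not reported here.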

Additional observations from a re-analysis of the deposited data

Results flagged for a closer look

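The effect of 5000 µM differed between the times for 1399 genes by the test of the difference itself. Those described in the report are given there by class and are not repeated, apart from the genes whose effect was called in opposite directions at the 2 times. Among these the difference was 1.36 for Fads1, 1.22 for Cyp8b1, 1.04 for Hacl1, 0.94 for Tk1, 0.84 for Gsta3, 0.83 for Mttp, 0.63 for Ero1b and 0.53 for Pdia4, which were first lower. It was -1.22 for Il33, -1.16 for Ccdc61 and -0.69 for Ddit3, which were first higher. The early rise of Il33 was not called on another probe set.

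In 31 of 600 groups of 5 arrays, over 150 genes, 1 array stood apart from the other 4 by more than Dixon's 95% critical value. Chance flags about 1 in 20 groups. In vehicle wells at 24 h the array that stood apart was the lowest for Ocel1 (signal 1581), Sult6b2 (3396), Sfn (1109), RT1-CE5 (3988), Ccng1 (11421), Tagln2 (5274), Lgals3 (18265) and Hacl1 (8278), and the highest for Cyp3a23-3a1 (81004), Atf3 (4446) and Ero1b (5690). At 5000 µM and 24 h it was the lowest for Gstt3 (4442), Sult2a6 (144), Ptov1 (189) and Tagln2 (2893), and the highest for Sfn (1967), Ccn2 (12411), Cdkn1a (6879) and Hspb1 (8560). In vehicle at 48 h it was the lowest for Bcar1 (120) and S100a6 (9915), and the highest for Gclc (13048), Srebf1 (5117) and Hacl1 (9907). At 5000 µM and 48 h it was the lowest for Lgr4 (729), Lrp1 (1885), Cyp2c12 (49.3), Gclc (10430) and Gclm (20798), and the highest for Inhbe (815) and Ftcd (25591). One array at 5000 µM and 24 h also stood apart in its log2 3'/5' β-actin ratio, at 1.76.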

How the results depend on the processing

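With the 3'/5' β-actin ratio as a covariate, 821 differences were called against 1399, 375 effects were smaller by 48 h against 711, and 76 turned against 128. Membership changed more than the counts: in that fit 329 of the 711 smaller effects kept their class and direction. So did 1060 of the 1253 persisting, 54 of the 91 grown, 194 of the 423 late and 66 of the 128 turned effects. On arrays below the gap in that ratio 43 effects had grown against 91. The counts of differences, of calls at each time and of the 5 time classes otherwise stayed within 1.5 times, with 1339 differences under median centring, 1602 under quantile normalization, 1139 with probe sets averaged, 1201 with no filter on dim genes, 1307 on the brightest 40% of genes, 1398 with 64 added, 1519 on 20 arrays alone, 1135 with the gap as a block, 1104 below the gap and 1337 with no variance trend. Leaving out 1 array at a time gave 1105 to 1725 differences, 2904 to 3379 calls at 24 h and 2500 to 2817 at 48 h. The classes then held 546 to 943 genes (smaller), 1177 to 1251 (persisting), 75 to 96 (grown), 341 to 473 (late) and 98 to 156 (turned).

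Of 274 values of the 211 genes given by the naming rule, 30 lost their call with the covariate, 22 below the gap, 31 with probe sets averaged and 10 with no filter. Averaging probe sets reversed 3 of them (Arhgap10, to 0.28, Eprs1 and Hspa9). Among the genes added later it reversed Hadha, to -0.14. Leaving out single arrays lost a call in 21 of the 211 genes and reversed none. Title numbers are unique, but each run of 6 consecutive numbers holds 1 array of every group. With these runs as a block, a paired fit, 1634 differences were called. Deviations of arrays within a run had a median correlation of 0.062 (75 pairs, lowest -0.320), against -0.018 between runs (300 pairs). The labels name no shared batch, and the fit without the block is the one reported. Counted by title number, every 24 h array above the gap in the β-actin ratio came from runs 1 to 3, and none from runs 4 and 5. At 48 h the 500 µM array of every run lay above it. Whether the runs are batches was not tested. Where group means lie below 469, as for Bcar1, Cyp7a1, Scd2, Hist4h4, Gpr108, Pkib and Giot1, the background limits the fold.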
